A study of Mus musculus with 10 samples.

Results

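The genes described here are 10 members of the fibroblast growth factor (FGF) system of bone marrow stroma, read through their open chromatin: the ligands Fgf1, Fgf2, Fgf7, Fgf10 and Fgf18, the receptors Fgfr1, Fgfr2 and Fgfr3, and the feedback inhibitors Spry1 and Spry2. They were taken by name from the family, and each was followed as a locus, the gene body plus 10 kb on either side, in which the summits of ATAC-seq peaks were counted. They are 10 of 21631 protein-coding loci on chromosomes 1 to 19 and X. Of these loci, 9098 averaged 2 summits or more per library and were tested, and 7 of the 10 members were among them. Fgf10, with a mean of 1.3 summits, Fgfr3, with 0.5, and Spry1, with 1.9, fell below that filter and are given as values.

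FGFs are secreted proteins that bind receptor tyrosine kinases together with heparan sulphate, and the receptors pass the signal to the Ras-ERK cascade through docking and adaptor proteins. ERK activity in turn raises inhibitors of the same cascade, among them the Sprouty proteins, so that Spry1 and Spry2 belong both to the targets and to the brakes of the pathway. In bone, FGF ligands and receptors act on growth plate cartilage and on osteoblast precursors, and FGF2, sold as FGF-basic, is a common supplement for growing stromal cells in culture.

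The study profiled C57BL/6J mouse bone marrow stroma by ATAC-seq, a method that reads open chromatin from the cuts of a transposase, from 2700 to 5000 cells per library and with 13 or 17 cycles of PCR. Both sorted groups were fresh CD45-, Ter119- and CD31- stroma with nothing transduced: Scf-GFP-negative cells (n = 2) and Scf-GFP-positive cells (n = 2), where the reporter marks cells that make stem cell factor. Both cultured groups began as Scf-GFP-positive stroma, plated in alpha-MEM with 20% fetal bovine serum and 10 ng/ml FGF-basic. One carried a control vector (n = 3, called control here) and the other Xbp1, Klf7, Irf3, Irf7 and Ostf1 (n = 3, named revitalized MSCs or rMSC by the submitters). Age, sex, passage number, the vector and the pooling of animals were not given in the sources used here. Fresh cells saw no added FGF-basic in a dish, whereas every culture did, so FGF-basic, serum, plating and transduction cannot be told apart. In these bulk libraries a smaller share of open cells and weaker opening in each cell cannot be told apart either.

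The deposited lists held 39936 to 78489 peaks, and the read depth behind them is unknown. Summit counts and their tests come from the 39912 peaks of lowest p-value in each library, so that every list has the same size. Promoter cover, regions and peak ranks use every deposited peak unless the equal-size lists are named, so a longer list holds more weak peaks there. A library without a peak is one in which the list in use holds none. In these lists the weakest peak had a -log10 q of 2.65 and 2.10 in the Scf-GFP-negative libraries and of 4.27 to 5.80 in the other 8. Summed over 12 markers of marrow stroma, the Scf-GFP-negative libraries held 14 and 16 summits, the Scf-GFP-positive 78 and 65, the control 53 to 63 and the rMSC 47 to 55. The Scf-GFP-negative libraries also held 40 and 49 summits at 14 blood cell markers, against 25 and 27 in Scf-GFP-positive and 16 to 18 in cultured libraries, and 32 and 46 at 7 erythroid markers, against 13 and 17 and 5 to 6. Ptprc, which encodes CD45, had 7 and 5 summits in the Scf-GFP-negative libraries, none in the Scf-GFP-positive and 2 in each cultured library. Ikzf1 had 14 and 19 in the Scf-GFP-negative libraries, 4 and 3 in the Scf-GFP-positive and none in culture. Ptprc and Ikzf1 held the blood marker excess over Scf-GFP-positive libraries, and the remaining blood markers summed to similar counts in both sorted groups. Among them Elane (0 and 2 against 5 and 5) and Spi1 (3 and 3 against 3 and 5) went the other way. Each culture had a summit at 11 of the 12 stroma markers. The exception was Lepr, a defining gene of marrow reticular stroma, with 1 and 0 summits in the Scf-GFP-negative libraries, 2 in each Scf-GFP-positive and none in any culture. The part of these differences in the results on Scf-GFP-negative cells was not tested.

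The promoters of 8 members were found in the RefSeq table (GRCm38.p6, the mm10 assembly), and 4 are shown: Spry1, covered by a deposited peak in every library, and Fgf7, Fgf2 and Fgf10, whose cover differed among the groups. Each line gives the 250 bases before the annotated start (for Fgf2 only the 74 that precede the gene's first annotated base), 5' to 3' on the gene's strand, all on the plus strand: Spry1 at chr3:37639697-37639946, Fgf7 at chr2:126034408-126034657, Fgf2 at chr3:37348403-37348476 and Fgf10 at chr13:118714449-118714698. Capitals mark the only matches found to 8 short motifs.
Spry1: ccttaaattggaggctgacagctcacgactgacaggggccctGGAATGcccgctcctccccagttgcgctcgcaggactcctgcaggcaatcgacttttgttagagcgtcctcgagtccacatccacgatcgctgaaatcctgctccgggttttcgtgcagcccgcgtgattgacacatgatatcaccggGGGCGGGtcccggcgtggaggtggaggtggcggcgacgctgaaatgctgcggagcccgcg
Fgf7: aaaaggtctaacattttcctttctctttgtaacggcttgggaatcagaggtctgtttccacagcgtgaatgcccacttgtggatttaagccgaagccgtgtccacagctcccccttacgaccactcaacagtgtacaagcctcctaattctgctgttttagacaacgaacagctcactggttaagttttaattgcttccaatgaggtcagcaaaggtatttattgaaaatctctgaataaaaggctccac
Fgf2: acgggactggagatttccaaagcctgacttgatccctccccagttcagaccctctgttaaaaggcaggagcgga
Fgf10: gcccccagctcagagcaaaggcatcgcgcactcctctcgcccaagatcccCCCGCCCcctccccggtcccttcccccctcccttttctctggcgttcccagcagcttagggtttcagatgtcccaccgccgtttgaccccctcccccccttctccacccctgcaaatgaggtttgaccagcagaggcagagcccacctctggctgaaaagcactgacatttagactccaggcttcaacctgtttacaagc
The capitals in Spry1 are a match to the TEAD motif GGAATG and one to the KLF/SP motif GGGCGGG, and those in Fgf10 are the KLF/SP motif on the other strand. No match lay in the Fgf7 and Fgf2 stretches. The motifs were searched on both strands, and the share of all 26794 promoters of 250 bases that hold each is 12.5% for TEAD and 23.8% for KLF/SP. It is 6.91% for AP-1 (TGANTCA), 14.1% for RUNX (TGTGGT), 7.11% for ETS (CCGGAAG), 11.8% for EBF (CCCNNGGG), 9.62% for C/EBP (TTGCNNAA) and 7.21% for IRF (GAAANNGAA). A match is a description of these letters only.

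Peaks over the promoter windows, from 250 bases before to 50 after the start, sorted these genes into plain patterns, first given for all deposited peaks. Spry1 had a peak there in all 10 libraries. The Fgf7 window was covered in no Scf-GFP-negative library and in all 8 others. Fgf2 was covered in no Scf-GFP-negative library, 1 of 2 Scf-GFP-positive libraries and all 6 cultures. Fgf10 was covered in none of the 4 sorted libraries, 2 of 3 control and 2 of 3 rMSC libraries. Of the promoters not printed, Spry2 and Fgf18 were each covered in 1 of 2 Scf-GFP-negative libraries and in the 8 others. Fgfr3 was covered in both Scf-GFP-positive libraries, 1 control and 1 rMSC library, and Fgfr2 in 1 rMSC library alone. For scale, 34.5% to 42.4% of all promoter windows held a peak in a given library, counting every deposited peak. In the equal-size lists Spry1 was covered in 7 libraries, all 4 sorted, 2 of 3 control and 1 of 3 rMSC. Fgf10 was covered there in 1 of 3 control and 1 of 3 rMSC libraries, Fgfr3 in no rMSC library and Fgfr2 in none, while the other 4 had the cover given above.

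**Figure D1:**
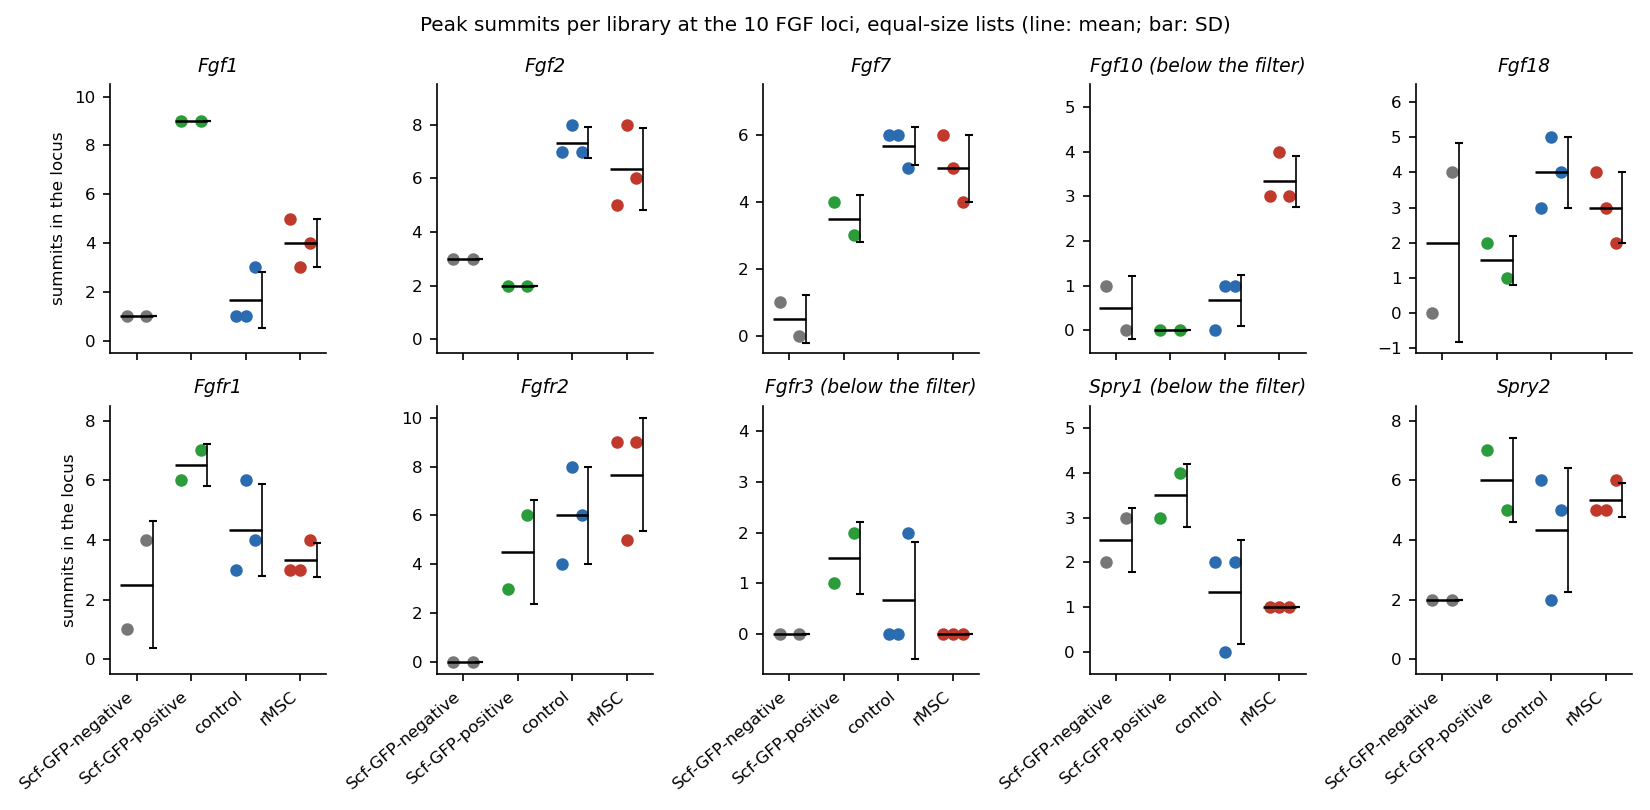
Peak summits in the gene body plus 10 kb on either side (vertical axis, count per library in lists of 39912 peaks) for each of the 10 genes, with 1 point per library, a line at the group mean and a bar of 1 SD. Fgf1 stands at 9 summits in both Scf-GFP-positive libraries and at 5 or fewer elsewhere, Fgf2 at 5 to 8 in the 6 cultures and at 2 or 3 in the sorted cells, and Fgfr2 at 0 in both Scf-GFP-negative libraries.

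The first comparison sets Scf-GFP-positive against Scf-GFP-negative stroma. In it 4 of the 7 tested loci rose: the ligands Fgf1 and Fgf7, the receptor Fgfr2 and the inhibitor Spry2, and none fell. Over all tested loci 13.5% were called higher and 16.8% lower in the same fit (limma, Benjamini-Hochberg adjusted p under 0.05). The median difference was 1.43 on the log2 scale for the 7 members and -0.22 for all 9098 loci. Shifting every library to the same median count moved the share of higher calls among all calls from 44.5% to 61.1%. Taking all deposited peaks moved it to 78.8%. Under both settings the 4 called members were called higher again. Fgf2, at 2 and 2 summits against 3 and 3, did not pass (-0.49, adjusted p = 0.104). It did, as lower, when the counts of each chromosome were scaled to equal totals (-0.71, adjusted p = 0.0464) and when the sorted libraries were fitted alone (adjusted p = 0.0283). In that last fit 2 members were called, Fgf2 among them, so most of the 4 rises lost their call there.

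Fgf1 encodes a ligand that activates every FGF receptor. Its locus (gene body chr18:38838672-38929470) held 1 and 1 summits in the Scf-GFP-negative libraries, 9 and 9 in the Scf-GFP-positive, 1, 1 and 3 in the control and 5, 3 and 4 in the rMSC libraries. Both fresh Scf-GFP-positive libraries thus lay above every other library. The peaks of the equal-size lists covered 200 and 259 bases of the locus in the Scf-GFP-negative libraries, 3958 and 5593 in the Scf-GFP-positive, 295 to 1210 in control and 1226 to 1836 in rMSC cultures. The rise over Scf-GFP-negative cells was 2.66 ± 0.41 (SE) in log2(summits + 0.5), at adjusted p = 0.00343. It was 2.66 on each of the 2 flow cells, one of which carried replicate 1 of every group and the other all remaining libraries, as read from the names of the deposited lists and not from the labels. The genes Arhgap26 and Gm5820 overlap the Fgf1 locus, so a summit here is not assigned to any one of them.

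Fgf7, also known as keratinocyte growth factor, is a ligand made by mesenchyme that signals to epithelial cells through a splice form of Fgfr2. Its locus (body chr2:126034658-126091185) held 1 and 0 summits in the Scf-GFP-negative pair, 4 and 3 in Scf-GFP-positive, 6, 6 and 5 in control and 6, 5 and 4 in rMSC libraries. The Scf-GFP-negative libraries lay below all 8 others. The rise in Scf-GFP-positive cells was 2.20 ± 0.46 (SE) at adjusted p = 0.0107, and 1.58 and 2.81 within the flow cells. Without Scf-GFP-positive replicate 1 it missed the threshold (2.02, adjusted p = 0.0627). The body of Fam227b overlaps Fgf7 throughout the regions named below.

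Fgfr2 encodes a receptor whose splice forms serve epithelium and mesenchyme. Not 1 summit lay in its locus (body chr7:130162451-130266808, minus strand) in either Scf-GFP-negative library, also among all deposited peaks. The Scf-GFP-positive libraries held 3 and 6, the control libraries 4, 8 and 6 and the rMSC libraries 9, 5 and 9. All 8 libraries of Scf-GFP-positive origin therefore stood above the Scf-GFP-negative pair, at adjusted p = 0.00153 for the fresh cells. No fold is given against a group at 0.

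Fgfr1 encodes a receptor widely expressed in mesenchymal cells. The locus (body chr8:25518759-25575718) held 1 and 4 summits in the Scf-GFP-negative pair, 6 and 7 in Scf-GFP-positive, 3, 6 and 4 in control and 3, 3 and 4 in rMSC libraries. The 2 sorted groups did not overlap, yet the difference of 1.43 ± 0.49 (SE) missed the threshold at adjusted p = 0.0649. It passed with all deposited peaks (1.62, adjusted p = 0.0120) and with every library shifted to the same median count (1.61, adjusted p = 0.0191). Fgfr3, a receptor of growth plate cartilage, was sparse: 0 and 0 summits in the Scf-GFP-negative pair, 1 and 2 in Scf-GFP-positive, 0, 0 and 2 in control and 0 in each rMSC library. Without the filter on low counts no comparison called it (adjusted p = 0.125, 0.361, 0.646 and 0.125 in the order of the comparisons here).

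Spry2 (body chr14:105891947-105896819, minus strand) held 2 and 2 summits in the Scf-GFP-negative pair, 7 and 5 in Scf-GFP-positive, 6, 2 and 5 in control and 5, 5 and 6 in rMSC libraries. The sorted groups did not overlap, and the rise of 1.36 ± 0.41 (SE) had an adjusted p of 0.0419. The call was lost when any of the 4 sorted libraries was left out, with adjusted p between 0.0845 and 0.183. Spry1, a short gene (body chr3:37639947-37644599), held 2 and 3, 3 and 4, 2, 0 and 2, and 1, 1 and 1 summits in the same order of groups. Among all deposited peaks the counts were 2 and 3, 3 and 5, 3, 4 and 3, and 3, 2 and 4, and there every cultured library lay within the range of the sorted ones.

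Fgf18, a ligand of cartilage and bone growth (body chr11:33116970-33147400, minus strand), held 0 and 4 summits in the Scf-GFP-negative pair, 2 and 1 in Scf-GFP-positive, 3, 5 and 4 in control and 4, 3 and 2 in rMSC libraries. Its Scf-GFP-negative replicates disagreed so widely that leaving out either one moved the difference from Scf-GFP-positive cells to opposite sides of 0, -1.22 (adjusted p = 0.105) and 1.95 (adjusted p = 0.0304). No comparison called it with all libraries in.

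The second comparison follows the same stroma into culture, control vector against fresh Scf-GFP-positive cells. Among the 7 tested loci Fgf2 rose and Fgf1 fell, against 5.8% of all loci higher and 6.24% lower. Higher calls made up 48.2% of all calls, and 76.4% with all deposited peaks. The remaining 5 did not pass, with differences from -0.58 at Fgfr1 to 1.19 at Fgf18.

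Fgf2 is the gene of the growth factor that was added to the dish. Its locus (body chr3:37348477-37410106) held 3 and 3 summits in the Scf-GFP-negative pair, 2 and 2 in Scf-GFP-positive, 7, 8 and 7 in control and 5, 8 and 6 in rMSC libraries. Every cultured library lay above every fresh one. Covered length was 2188 to 2630 bases in the 4 sorted libraries and 4208 to 5491 in the 6 cultures. The rise in control cultures was 1.65 ± 0.18 (SE) at adjusted p = 0.00278, and it was 1.58 and 1.68 within the flow cells. With flanks of 50 kb, which take in more of the neighbouring genes, the difference shrank to 0.54 at adjusted p = 0.0768. The genes Nudt6 and Fgf2os overlap the Fgf2 body.

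Fgf1 went the other way, from 9 and 9 summits in fresh cells to 1, 1 and 3 in control cultures. The fall was -2.26 ± 0.38 (SE) at adjusted p = 0.0130, and -2.66 and -2.05 within the flow cells. In all deposited peaks the locus held 11 and 10 summits in fresh cells against 2, 6 and 9 in control cultures, and the difference there did not pass (-1.04, adjusted p = 0.296). It also missed the threshold without Scf-GFP-positive replicate 1 (adjusted p = 0.0646) or replicate 2 (adjusted p = 0.0612).

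**Figure D2:**
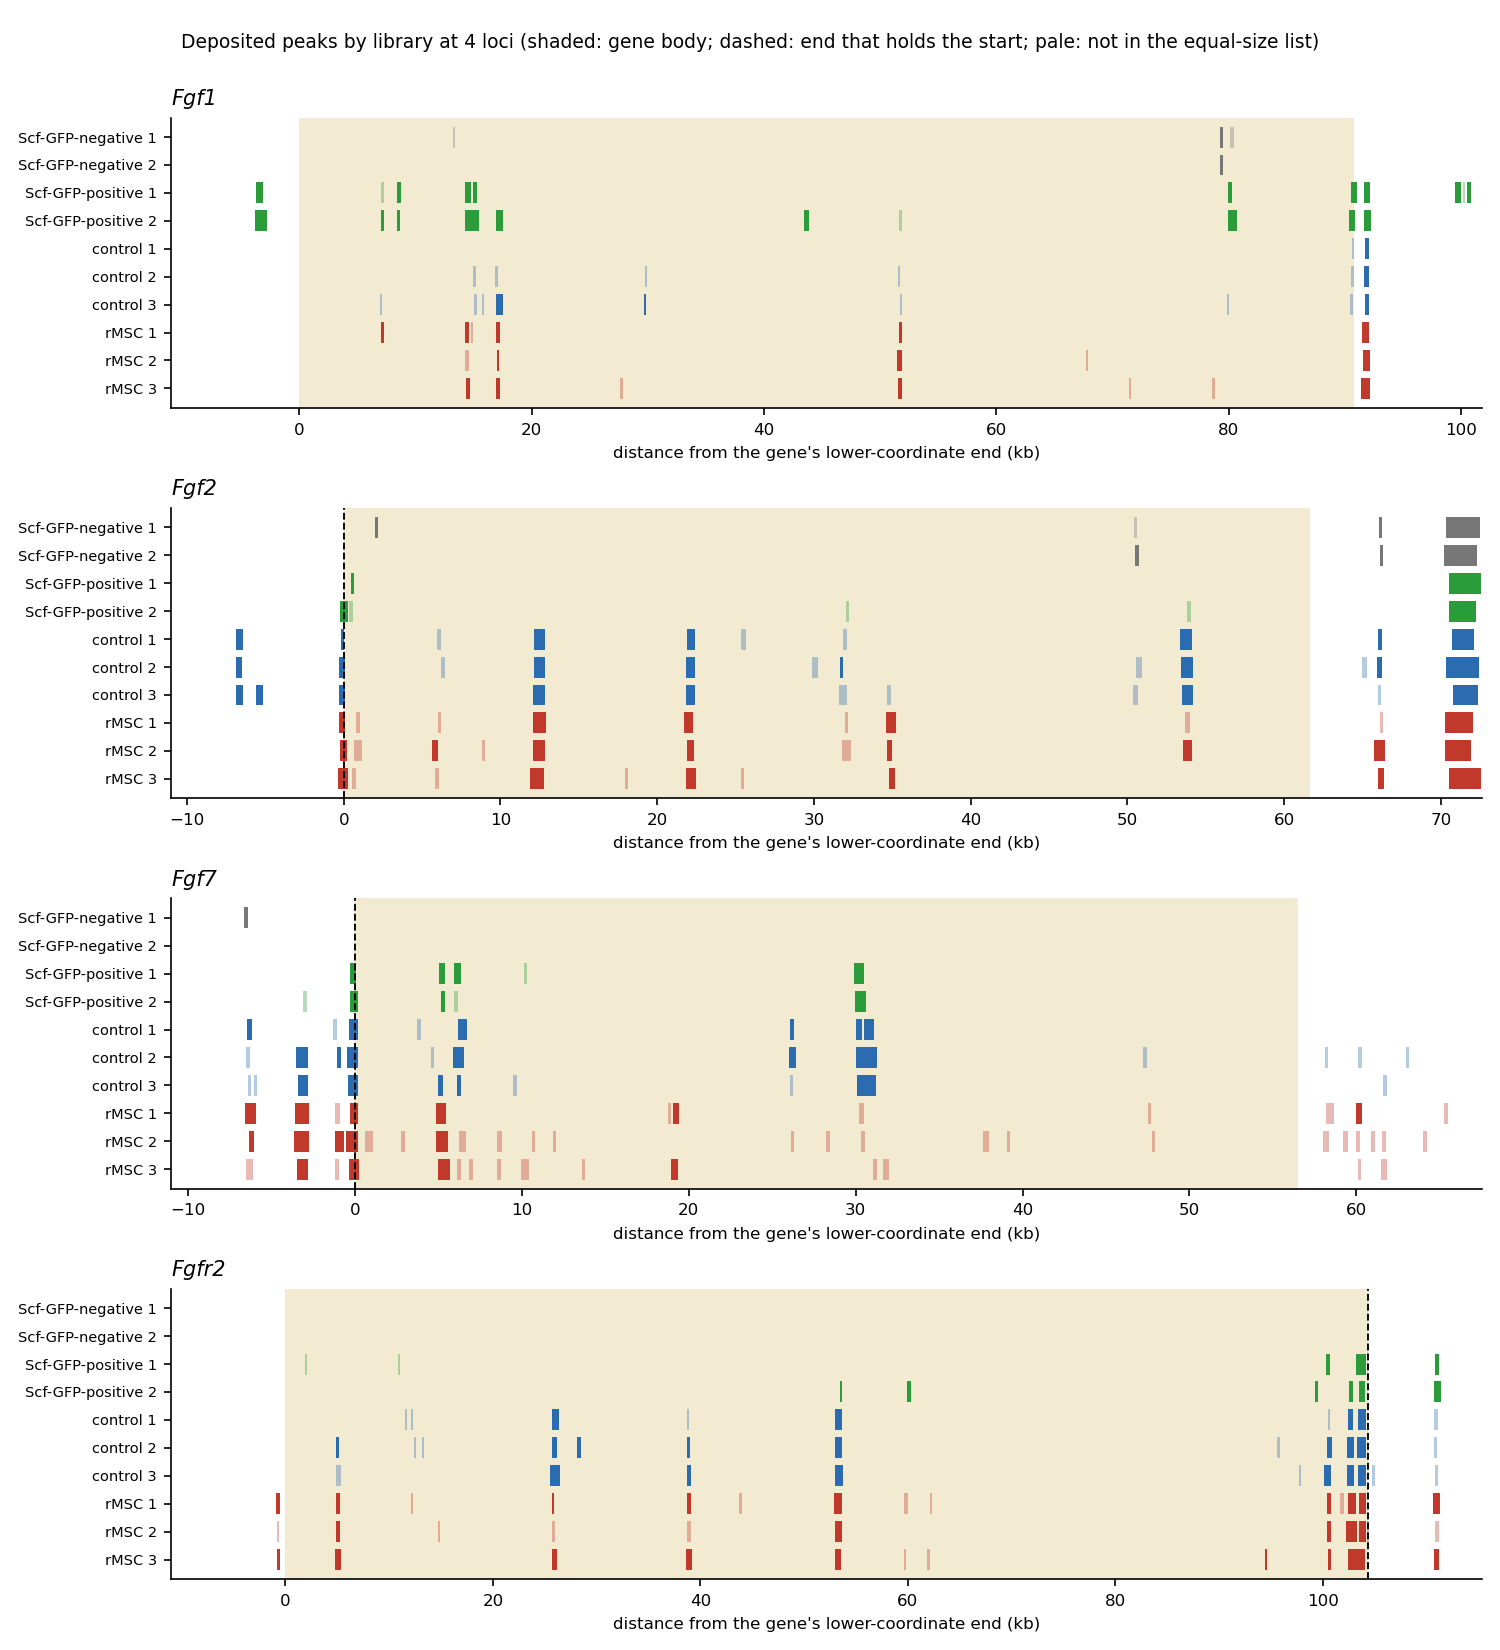
Deposited peaks at Fgf1, Fgf2, Fgf7 and Fgfr2 in each library (rows) by distance from the lower-coordinate end of the gene (kb), with the gene body shaded, the start dashed where the table gives it, and peaks outside the equal-size lists pale. At Fgf2 the columns 12.3 and 22.0 kb past the start are present in the 6 cultures and absent from the 4 sorted libraries, and at Fgfr2 the block beside the start is present in all libraries except the Scf-GFP-negative.

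The third comparison, rMSC against control cultures, called none of the 7 loci with limma, against 1.44% of all loci higher and 1.11% lower. Higher calls made up 56.5% of all calls, and 71.4% with all deposited peaks. At an unadjusted p under 0.05 there was 1, Fgf1, with 5, 3 and 4 summits against 1, 1 and 3. The 2 groups met at 3 summits, and the difference of 1.15 ± 0.34 (SE) had an adjusted p of 0.121. Without control replicate 3 it passed (1.56, adjusted p = 0.0283). Differences at the other 6 lay between -0.38 at Fgf18 and 0.38 at Spry2.

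Fgf10, a ligand of the same receptor splice form as Fgf7, was not tested and is described by its values. It had 1 and 0 summits in the Scf-GFP-negative pair, 0 and 0 in Scf-GFP-positive, 0, 1 and 1 in control and 3, 4 and 3 in rMSC libraries. All 3 rMSC libraries lay above the 7 others in the equal-size lists. In all deposited peaks the counts were 1, 5 and 4 in control and 7, 6 and 5 in rMSC libraries, so that the cultures met at 5. Without the filter on low counts the difference from control was 1.87 ± 0.55 (SE) at adjusted p = 0.141, and from fresh Scf-GFP-positive cells, both at 0, adjusted p = 0.0239.

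The fourth comparison sets rMSC against fresh Scf-GFP-positive stroma and shares its libraries with the comparisons above. Of the 7 loci only Fgf2 was called, higher, while 7.75% of all loci were higher and 7.12% lower. Higher calls made up 52.1% of all calls, and 81.7% with all deposited peaks. The rise was 1.43 ± 0.18 (SE) at adjusted p = 0.00406, and 1.14 and 1.57 within the flow cells. Like the control culture value, it did not pass with 50 kb flanks (0.52, adjusted p = 0.0730). Fgf1, at 3 to 5 summits against 9 and 9, differed by -1.10 ± 0.38 (SE) and did not pass (adjusted p = 0.0920). Fgfr2, at 9, 5 and 9 summits against 3 and 6, did not pass either (0.73, adjusted p = 0.244), but it did with all deposited peaks (1.05, adjusted p = 0.0258) and with peaks of a -log10 q of at least 5 (1.55, adjusted p = 0.0278). There the counts were 14, 11 and 11 against 5 and 6, and 10, 6 and 9 against 3 and 2.

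**Figure D3:**
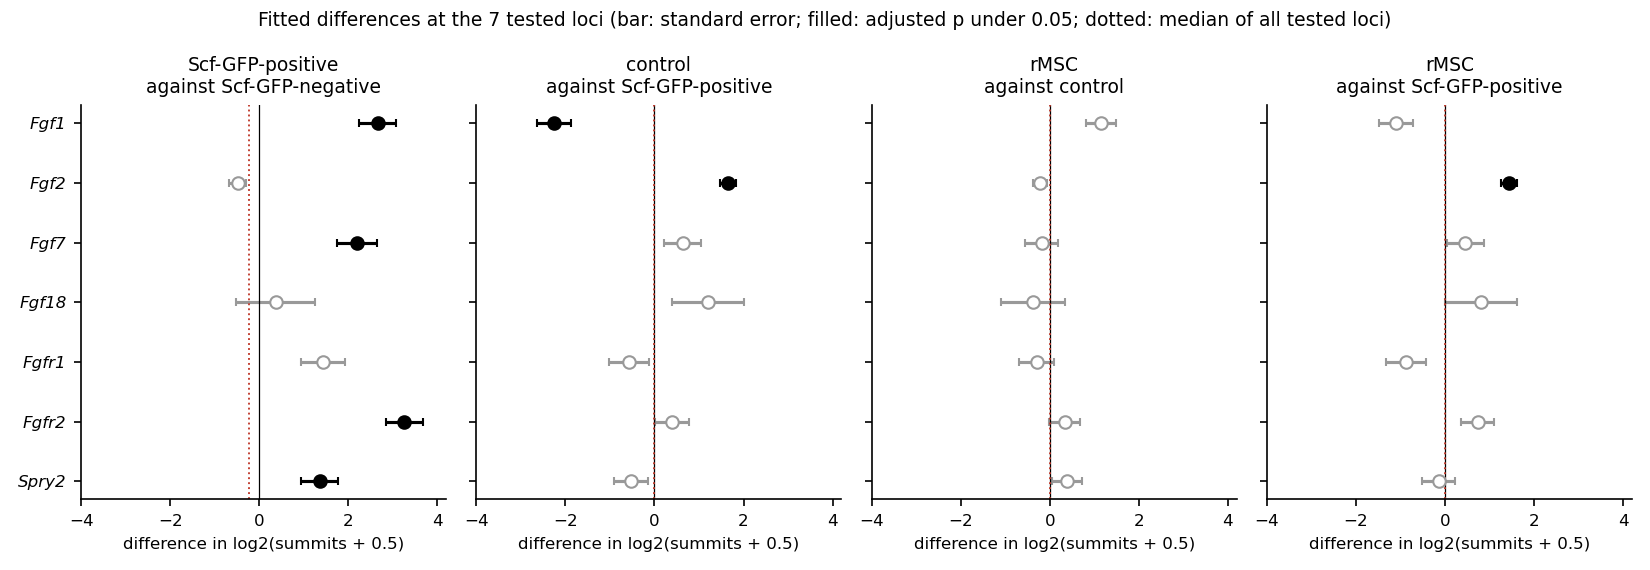
Fitted differences in log2(summits + 0.5) (horizontal axis) with their standard errors for the 7 tested genes in the 4 comparisons, filled where the adjusted p was under 0.05 and with a dotted line at the median of all tested loci. Fgf1 lies at 2.66 and -2.26 in the first 2 panels, Fgf2 at 1.65 and 1.43 in the comparisons of cultures with fresh cells, and no filled point appears for rMSC against control; the Fgfr2 value in the first panel sets against 0 summits and depends on the added 0.5.

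Merging overlapping deposited peaks of all libraries gave 157 regions at the 10 loci, of 201290 in all. Only 3 of the 157 (1.91%) were open in all 10 libraries and 77 (49.0%) in a single one, against 5.24% and 51.5% of all regions. The deposited lists differ in length, and so does the number of weak peaks behind these counts. The 3 shared regions lay at the starts of Spry1 and Spry2 and beyond the far end of Fgf2, where the region (chr3:37418706-37421567) overlaps Nudt6 and Spata5. In the equal-size lists the Spry1 region was held by 7 libraries and the other 2 by all 10. That last region lies outside the Fgf2 gene body and ranked among the top 0.999% to 4.60% of peaks in each library. It had the highest fold enrichment of the Fgf2 locus in the 4 sorted and the 3 control libraries, and a region inside the gene, described below, had it in the 3 rMSC libraries. The Spry2 region (chr14:105895804-105898328), a broad block over the promoter, ranked in the top 52.1% and 51.9% in the Scf-GFP-negative libraries and in the top 1.54% to 7.17% in the other 8.

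A region is called distinct here when every library of one group and none of the other holds a deposited peak. Between sorted groups 20 of the 157 regions (12.7%) were distinct for Scf-GFP-positive cells, against 7.72% of all regions, and 3 (1.91%) for Scf-GFP-negative cells, against 2.19%. Requiring summits within 150 bases of the region's middle summit lowered the sum of both directions from 23 to 15, and in the equal-size lists it was 21. The 20 fell at Fgf1 (6), Fgf7 (4), Fgfr1, Fgfr2, Spry1 and Spry2 (2 each), Fgf2 and Fgfr3 (1 each). At Fgfr1 a region over the lower end of the gene (chr8:25518321-25520009) and one 18.6 kb further in (chr8:25535585-25537841) had peaks in all 8 libraries except the Scf-GFP-negative, with the cultures at the top 5.17% to 18.2%. At Fgfr2 a block 0.651 kb inside the start (chr7:130264690-130266668) did the same, at the top 10.3% to 26.5%. Its absence from Scf-GFP-negative libraries goes with the absence of any other peak at that gene.

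At Fgf1 single regions followed different patterns. One region 1.09 kb beyond the higher end of the gene (chr18:38930082-38930876) was open in all 8 libraries of Scf-GFP-positive origin and in neither Scf-GFP-negative one. Regions at -3.49 kb from the lower end (chr18:38834855-38835868) and 8.56 kb inside the gene (chr18:38847101-38847410) had peaks in both fresh Scf-GFP-positive libraries and nowhere else. A region at the higher end itself (chr18:38928982-38929693) was open in fresh cells at the top 31.3% and 35.3% of peaks, in all 3 control cultures at the top 87.4% to 94.6%, and in no rMSC library. In the equal-size lists no control library held it. In the opposite sense, a region 51.7 kb inside (chr18:38890128-38890589) ranked in the top 14.2% to 32.9% in the 3 rMSC libraries, at 87.4% and 87.8% in 2 control libraries and at 69.2% in 1 fresh library. The equal-size lists held it in the 3 rMSC libraries and no other. A region 79.3 kb inside (chr18:38917901-38918159) was open in both Scf-GFP-negative libraries alone.

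Into control culture, 11 regions (7.01%) were distinct for the culture, against 6.77% of all regions, and 3 (1.91%) for fresh cells, against 3.94%. For rMSC against fresh cells the counts were 17 (10.8%), against 8.65%, and 6 (3.82%), against 4.57%. In the equal-size lists the sums of both directions were 16 in place of 14 and 19 in place of 23, but the split by direction changed. There, fewer regions were distinct for control cultures than for fresh cells, the reverse of the order among all deposited peaks. For rMSC against fresh cells the directions were nearly even there. The share for control cultures among all deposited peaks lay near the background. At Fgf2 the regions 12.3 kb (chr3:37360349-37361364) and 22.0 kb (chr3:37370199-37370953) past the start were open in all 6 cultures and in no sorted library. The first was among the strongest in the cultures, at the top 3.21% to 10.7% in control and 1.57% to 3.69% in rMSC libraries, and the second ranked in the top 15.9% to 38.6%. At Fgf18 a region 24.4 kb past the start (chr11:33122644-33123477) showed the same 6 of 6 and 0 of 4, at the top 17.7% to 52.1%. At Fgfr2 regions 78.5 kb (chr7:130187987-130188952) and 65.5 kb (chr7:130201097-130201637) past the start did so too, though the equal-size lists held them in only 5 and 4 of the 6 cultures.

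Between the 2 cultures 3 regions (1.91%) were distinct for rMSC, against 2.75% of all regions, and 2 (1.27%) for control, against 2.58%. The 3 were a region past the far end of Fgfr2 (chr7:130161548-130161928), one at -5.17 kb from the Fgf18 start that overlaps Npm1 (chr11:33152428-33152890), and one 0.461 kb inside Fgf2 (chr3:37348802-37349622). The Fgf2 region was also open in both fresh Scf-GFP-positive libraries, whereas the other 2 were open in rMSC libraries alone. The equal-size lists held the 3 regions in 2, 1 and 0 of the 3 rMSC libraries, so none of them was distinct there. The 2 for control were the region at the higher end of Fgf1 given above and one at -6.87 kb from the Fgf2 start (chr3:37341593-37342038), open in the 3 control libraries at the top 14.6% to 59.5% and in no other. At Fgf10 regions 1.24 kb (chr13:118715701-118716321) and 17.8 kb (chr13:118732118-118732775) past the start were open in all 3 rMSC libraries and in 1 and 2 of the 3 control libraries. No sorted library held either. In the equal-size lists the first was in 2 rMSC libraries and the second in all 3, and no control library held either. Those lists gave 6 distinct regions between the cultures in place of 5.

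At Fgf7 the start was covered in every library of Scf-GFP-positive origin, and regions on either side of it differed. The region over its promoter (chr2:126034110-126034874) ranked in the top 12.6% to 22.6% in the cultures and at 44.9% and 15.2% in fresh Scf-GFP-positive cells. A region at -2.97 kb from the start (chr2:126031015-126031935) ranked in the top 8.26% to 17.6% in rMSC libraries and was at 25.6% and 45.9% in 2 of 3 control libraries. One 30.5 kb past the start (chr2:126064571-126065962) stood at the top 14.5% to 43.8% in control and at 56.8% to 91.1% in rMSC libraries. The equal-size lists held that region in all 3 control and both fresh Scf-GFP-positive libraries and in no rMSC library. Control replicate 1 had no peak at -2.97 kb. The ranks come from lists of different lengths and show no change by themselves.

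**Figure D4:**
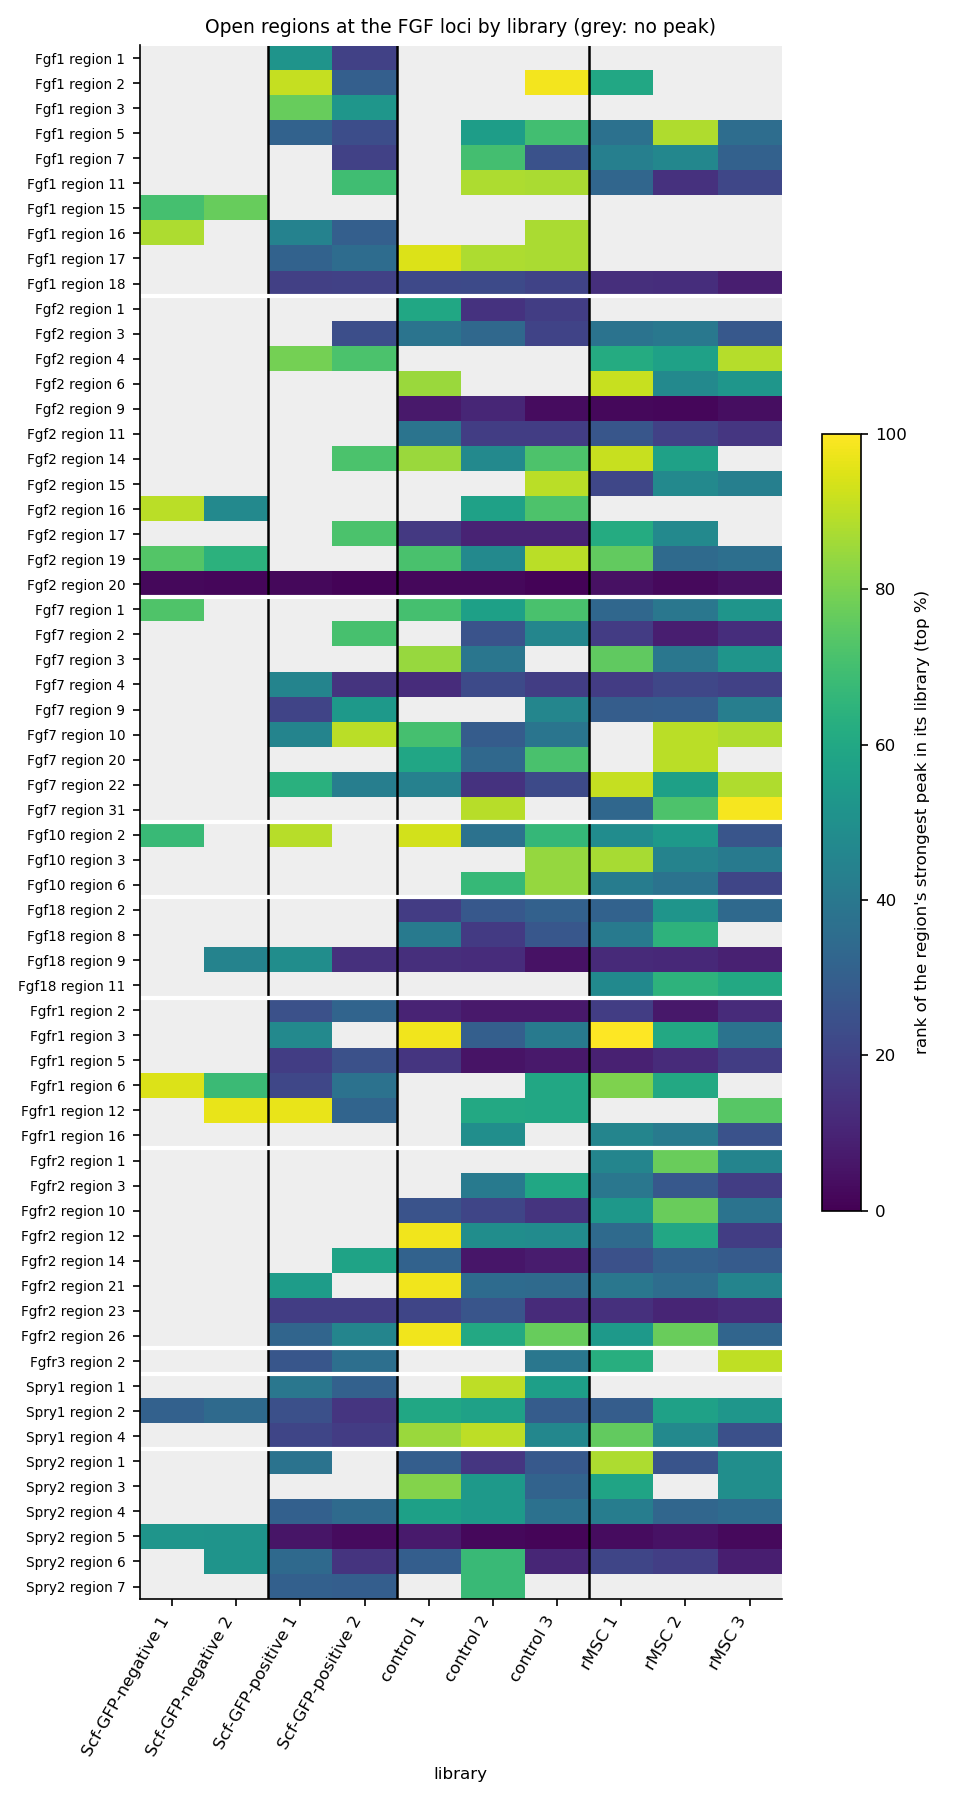
The 62 regions open in at least 5 libraries or distinct in a comparison (rows, grouped by gene) in each library (columns), coloured by the rank of the strongest peak in its library (top %, dark is stronger) and grey where no peak was listed. Region 18 of Fgf1 stands at the top 8.53% to 22.3% in the 8 libraries of Scf-GFP-positive origin, region 9 of Fgf2, open in the cultures alone, reaches the top 1.57%, and most rows are grey in the Scf-GFP-negative columns.

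The wider pathway was read from 4 lists of other genes. Of 18 other receptors, co-receptors and binding proteins 11 were tested, and Scf-GFP-positive cells were higher at 5 and lower at 2 against Scf-GFP-negative, with a list median of 1.40 beside -0.22 for all loci, of which 13.5% were higher and 16.8% lower. Flrt2, a membrane partner of FGF receptors, held 5 ± 1.41 (SD, n = 2) summits against 0 in both Scf-GFP-negative libraries (adjusted p = 0.000187), and Sdc4, a heparan sulphate syndecan, 4.5 ± 0.707 against 0 (adjusted p = 0.000192). Gpc6, a glypican, rose by 4.11 ± 0.43 (SE) to 14.5 ± 2.12 summits, and Hspg2, which encodes the matrix proteoglycan perlecan, by 1.65 ± 0.29. The loci that fell were Gpc4, another glypican (-1.67 ± 0.26), and Fgfbp3, an FGF-binding protein (-0.99 ± 0.19). No gene of this list was called in the other 3 comparisons, where the medians lay between -0.08 and 0.17.

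Of 22 feedback inhibitors and targets 20 were tested, and 5 were higher and 1 lower in Scf-GFP-positive against Scf-GFP-negative cells, with a median of 0.37 against the same -0.22, 13.5% and 16.8% for all loci. Fos, an immediate early gene, had 11.5 ± 0.707 summits (SD, n = 2) in fresh Scf-GFP-positive cells against 5 in each Scf-GFP-negative library, a rise of 1.12 ± 0.17 (SE, adjusted p = 0.00301). It fell to 5.67 ± 1.15 in control (adjusted p = 0.0108) and to 6 in each rMSC library (adjusted p = 0.0120). Without Scf-GFP-positive replicate 1 those falls missed the threshold at adjusted p = 0.0508 and 0.0614. Dusp4, an ERK phosphatase, rose by 2.20 ± 0.47 in the first comparison, Etv5, an ETS factor, by 0.67 ± 0.16 and Egr1, another immediate early gene, by 1.14 ± 0.32. Of these 3 none kept its call in all 4 fits that left out a library. Rasa1, a brake on Ras, was the one that fell (-1.40 ± 0.41), and leaving out any library ended its call.

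In the same list Cbl, a ubiquitin ligase that turns receptors over, fell in rMSC to 1 summit per library against 3 ± 1 (SD, n = 3) in control (adjusted p = 0.0448) and 2.5 ± 0.707 in fresh cells (adjusted p = 0.0406). Those calls held in 1 of 6 and 0 of 5 left-out fits. Fosl1, an AP-1 member, rose in rMSC to 5 against 2.5 ± 0.707 in fresh cells, a call kept in 1 of 5 such fits. For these cultures against fresh cells, list medians were 0.22 in control and 0.12 in rMSC.

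Of 24 adaptors and members of the Ras-ERK cascade 19 were tested. The median in the first comparison was -0.25, beside -0.22 for all loci, with 1 locus higher and 2 lower, against 13.5% and 16.8% of all loci. Araf, a kinase of the cascade, rose by 1.12 ± 0.26, and Sos1, an activator of Ras, fell (-1.10 ± 0.23). Those calls held in 2 and 3 of the 4 left-out fits. None was called in control cultures against fresh cells or between the cultures. In rMSC against fresh cells 2 were higher and none lower, against 7.75% and 7.12% of all loci. Pik3ca, a kinase that receptors activate beside the cascade, rose by 0.97 ± 0.26, a call kept in 1 of 5 left-out fits. Of 17 other ligands and FGF homologous factors 3 were tested. Over all loci 13.5% were higher in the first comparison, and 6.24% and 7.12% were lower in control and rMSC against fresh cells. Of the 3, only Fgf11, which stays inside the cell, was called. It had 4 summits in each Scf-GFP-positive library against 2 in each Scf-GFP-negative, 2.33 ± 0.577 in control and 2 in each rMSC library. Fgf11 was called at limma adjusted p = 0.0103, 0.0344 and 0.0146 in the respective comparisons with fresh Scf-GFP-positive cells. Those calls held in 4 of 4, 1 of 5 and 3 of 5 left-out fits.

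Other loci with the most similar profiles over the 10 libraries are given as a description, by Pearson correlation of log2(summits + 0.5), since libraries of a group share their cell type. Fgf1 was most like Dock8 (0.972) and Tob2 (0.935), Fgf2 like Wdr25 (0.973) and Trhr2 (0.969), and Fgf7 like Ccbe1 (0.993) and Irs1 (0.987). Fgfr2 was most like Sgpp2 and Neurl1a (0.987 each), Fgfr1 like Pop4 (0.934) and Adamts4 (0.928), Spry2 like Klhl8 (0.964) and Snrk (0.953), and Fgf18 like Pick1 (0.960) and Lmnb1 (0.938).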

How the data were processed

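ATAC-seq reads of 10 libraries were aligned with BWA and peaks were called with MACS2 on mm10, per the submitters' processing notes (versions and thresholds not given in the sources used here). Each of the deposited lists gives, per peak, a score, a fold enrichment ratio, -log10 p and -log10 q and the summit, all made by the authors per library. From them, peaks on chromosomes 1 to 19 and X were ranked by -log10 p, the strongest 39912 of each library were kept, and summits were counted in gene bodies plus 10 kb (RefSeq GRCm38.p6). The table holds gene ends but no exons, so exon or intron was not analysed here. Loci averaging 2 summits or more were tested with limma 3.58.1 (R 4.3.3), with an intensity trend, on log2(summits + 0.5). All 4 groups entered 1 fit, p-values were adjusted by Benjamini-Hochberg over 9098 loci and the threshold was 0.05. The fit was tested on simulated data. Regions are peaks merged at 1 base of overlap or more.

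The members and gene lists were chosen with earlier results of these data known. All 10 members are named. From each list, up to 4 called loci per direction and comparison are named, those of lowest adjusted p, and for each tested member the 2 most similar loci more than 50 kb away or on another chromosome. Some loci of the lists are not reported here. The labels do not say whether replicates are separate animals or cultures. The p-values therefore measure only how far these libraries vary, which may be technical. Alternatives were other lists, flanks, filters, added constants, scalings and terms, and each library left out in turn.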

Additional observations from a re-analysis of the deposited data

How the results depend on the processing

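No called value changed sign. Over single members and alternatives, 406 results changed neither sign nor call, whatever their size. Of the rest, 16 lost a call, 12 gained one and 14 uncalled values changed sign. The number of members called fell from 4 to 2 in Scf-GFP-positive against Scf-GFP-negative when only the groups compared were fitted. Fgf2, called lower, was among those 2, so most of the 4 rises were lost. The number also moved when a library was left out. In control against Scf-GFP-positive it fell from 2 to 1 with all deposited peaks and with only the groups compared, and ranged from 1 to 2 with a library left out. In rMSC against control it was 0 to 1 with a library left out. In rMSC against Scf-GFP-positive it went from 1 to 3 with all deposited peaks, to 2 with strict peaks (-log10 q of at least 5) and to 2 with no filter. The counts do not show which member was called. With 50 kb flanks Fgf2 lost its call in control and in rMSC against fresh cells, and in the latter it was the only member called in the main fit. Same-numbered libraries did not deviate together (correlations of -0.0233 to 0.0228 over 13 pairs), so numbers were not taken to pair samples. The replicate block gave 4, 2, 0 and 1 members called in the 4 comparisons, the same as without it, while over all loci it lowered calls from 1096 to 426, from 232 to 52 and from 1353 to 699 in the last 3. Over all alternatives except the left-out fits, the calls among all loci were 941 to 4986 (main 2758), 426 to 1986 (1096), 35 to 739 (232) and 699 to 2632 (1353). These counts are not of the same number of loci. The loci tested ranged from 5353 with flanks of 2 kb to 17805 with no filter, beside 9098 in the main fit.

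Distinct regions at the members went from 23 to 15 between sorted groups with summits within 150 bases of the middle summit, an alternative chosen after seeing the data. Promoter cover in the equal-size lists was also added after seeing the data. With a library left out the distinct regions were 26 to 41 between sorted groups and 5 to 11 between the cultures. They were 15 to 29 for control and 26 to 37 for rMSC against fresh cells. Leaving out a library can only keep or raise these counts, because fewer libraries then have to meet the rule. A left-out fit with 1 sorted library in a group takes its spread from the other groups.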
